A study of Homo sapiens with 6 samples.

Results

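The genes described here are 8 interferon-induced or related genes that form a pair of families: IFI6, IFI27, IFI27L1 and IFI27L2, and IFIT1, IFIT2, IFIT3 and IFIT5. They were taken by gene symbol from a table of 60675 genes, in which each symbol occurred once, and the set had been chosen by families of interferon-induced genes whose FPKM in K29Q against WT was already known from these same 6 libraries. Total RNA had been sequenced from HCT116, an established human colon cancer line, stably expressing either the wild-type form of PHF5A (WT, 3 libraries) or PHF5A K29Q (3 libraries), in which a glutamine stands in place of a lysine. PHF5A is a small SF3B protein of the U2 snRNP, which binds introns at the branch site. Cells of both groups carry an introduced PHF5A, and the labels do not say what became of the line's own copy. The labels name no treatment, no interferon exposure and no parental control. They also leave unsaid if replicates are independent cultures or clones, so the errors and p-values below measure only how these libraries vary, and that may be technical variation. The values are FPKM, which scale the fragments of a gene by its length and by the mapped depth. In bulk RNA, a change in the number of cells that express a gene and a change in RNA per cell cannot be told apart.

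Interferons are secreted when a cell senses foreign nucleic acid. Type I and type III interferons act through JAK kinases on a transcription factor complex that contains IRF9 and binds the interferon-stimulated response element (ISRE) in the promoters of its target genes. The IFIT proteins are cytosolic, built of tetratricopeptide repeats, and several bind the 5′ ends of foreign RNA: IFIT1 binds RNA with an incompletely methylated cap, IFIT5 binds RNA with a 5′ triphosphate, and IFIT2 and IFIT3 form complexes with IFIT1. IFI6 and IFI27 encode small hydrophobic proteins that have been placed in mitochondrial or endoplasmic reticulum membranes, and IFI27L1 and IFI27L2 encode their relatives.

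RefSeq promoter windows (GRCh38.p14, 250 bases before to 50 after each annotated start) were found for 7 of the 8 members, and IFIT2 had no entry. The core of the ISRE, GAAA followed by any 2 bases and a second GAAA, was searched on both strands, and 5 of the 7 members held at least 2 copies in a window, with 3 in IFI6 and 3 in IFIT5. Over all 35116 windows 3.57% held at least 1 copy, 0.259% at least 2 and 0.037% at least 3. Counted by gene, as the members are, the shares of 27305 genes were 4.38%, 0.311% and 0.0476%. IFI27L1 and IFI27L2 held 0. The gamma-activated site TTCNNNGAA was found in 7.66% of all windows and 9.38% of genes. It occurred once in IFI27, where it overlaps both ISRE cores, and in none of the other 6 members. The stretches below are shown because the copies of the core set 5 members apart from IFI27L1 and IFI27L2; each reads 5′ to 3′ along the gene's strand and ends before the first exon annotated there, and capitals mark the ISRE core on either strand.
IFI6 (chr1:27672256-27672368, minus strand): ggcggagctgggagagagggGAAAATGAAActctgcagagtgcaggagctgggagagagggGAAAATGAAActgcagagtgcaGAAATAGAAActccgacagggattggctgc
IFIT1 (chr10:89392487-89392545, plus strand): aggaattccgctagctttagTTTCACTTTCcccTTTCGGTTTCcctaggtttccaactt
IFIT3, upstream start (chr10:89327821-89327893, plus strand): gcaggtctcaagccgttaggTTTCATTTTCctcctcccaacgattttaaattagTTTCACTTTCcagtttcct
IFIT5 (chr10:89414503-89414567, plus strand): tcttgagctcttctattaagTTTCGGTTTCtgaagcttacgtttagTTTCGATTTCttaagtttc
IFI27 (chr14:94110608-94110670, plus strand): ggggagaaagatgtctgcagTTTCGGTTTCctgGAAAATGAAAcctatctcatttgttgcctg
IFI27L1 (chr14:94081182-94081281, plus strand): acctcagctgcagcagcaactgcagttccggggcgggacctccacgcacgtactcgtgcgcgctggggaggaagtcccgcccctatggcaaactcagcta
IFI27L2 (chr14:94129665-94129764, minus strand): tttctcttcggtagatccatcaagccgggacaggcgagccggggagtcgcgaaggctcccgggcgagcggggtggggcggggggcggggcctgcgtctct
In IFI6 all 3 cores lie on the gene's own strand, between 156 and 93 bases before the start, and the first and the second are the same GAAAATGAAA. In IFIT1, IFIT3 and IFIT5 all cores lie on the opposite strand. IFIT5 carries its cores closest to the start, from 45 to 4 bases before it, and the nearest, which runs into the transcript, is not shown. A match is a description of these letters and no evidence of binding.

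The study's libraries were similar in estimated depth, although base composition moved with the differences between the groups, as described below. The depth is not stated, but the steps between low FPKM values of single-exon genes were spaced as if each library held 67400000 to 80300000 reads. This is a rough estimate that takes a step as 1 read of a pair, and if a step were a whole fragment, the numbers of fragments given below would be 2 times as high. The column headers carry a code with 2 values, whose meaning no label states. It is called run A (K29Q 1, K29Q 2 and WT 2) and run B (K29Q 3, WT 1 and WT 3) here, and differences within each are given beside the pooled ones. The first principal component held 34.1% of the variance, and on it WT 1 lay at -4.72, beside K29Q 1 at -4.76 and away from WT 2 and WT 3 at 13.2 and 17.99. PHF5A itself, endogenous and introduced together, had 33.1 ± 1.06 FPKM in WT libraries and 44.1 ± 2.38 in those of K29Q (SD, n = 3 each). Of the 9 colon epithelial markers 8 passed the filter described below (KRT19 reached 757 FPKM) and VIL1 stayed at or below 0.181, while the leukocyte gene PTPRC reached at most 0.00268 FPKM and the fibroblast gene DCN was listed at 0 in every library. Other markers of those cells were detected: CD68 had 1.47 to 1.999 FPKM over the 6 libraries, LYZ 0.451 to 0.703 and COL1A1 4.35 to 5.93 (these marker genes were picked for naming after their values were seen). The 9 epithelial markers summed to 1278 to 1437 FPKM in WT and 1183 to 1238 in K29Q. Of the 8 that passed the filter, 4 lay wholly lower and 1 wholly higher in K29Q. Over all 13261 genes that passed it, 9% lay wholly lower and 8.8% wholly higher. The part of these markers in the results was not tested. The 8 leukocyte markers summed to 2.67 to 3.32 FPKM in WT and 2.85 to 3.20 in K29Q, and the 7 fibroblast and endothelial markers to 4.76 to 5.67 and 4.83 to 6.22.

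Of the 8 members 7 had higher levels in all 3 K29Q libraries than in any WT library, and IFI27L1 overlapped. Over the 13261 genes that passed a filter on low values (1 FPKM or more in 3 or more libraries), 8.8% lay wholly higher in K29Q and 9% wholly lower. Among the 7 members that passed the same filter, 6 lay wholly higher. The families were proposed with this contrast in view, so nothing is read from the count of members and the values that follow are a description. The filter kept 7 members, each at 1 FPKM or more in all 6 libraries, and IFI27, which did so in 2 libraries, did not. A limma test on log2(FPKM + 1) over the 13261 genes called 7 (0.0528%) at an adjusted p of 0.05, of which 4 (0.0302%) were higher in K29Q, and 1 of the 7 members tested, IFI6, was among them.

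**Figure D1:**
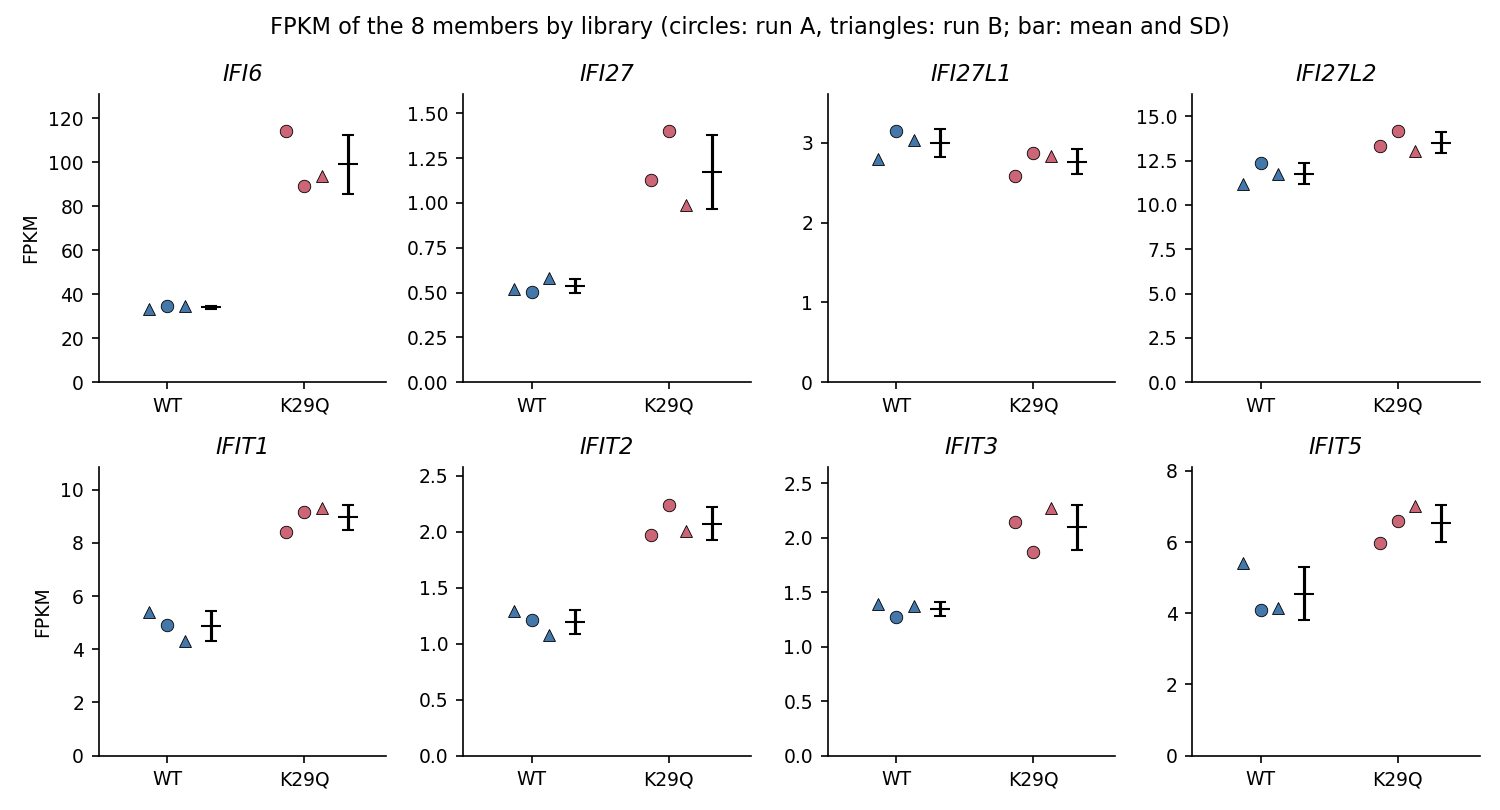
FPKM (vertical axes, from 0) of each member in the 3 WT and 3 K29Q libraries; circles are run A, triangles run B, and the bars give the mean and SD of each group. The groups are apart for 7 genes and overlap for IFI27L1, and IFI6 shows the widest gap.

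IFI6 stood out by its level and by its difference. The gene (ENSG00000126709, chromosome 1 from 27666061 to 27672218, minus strand, GRCh38) codes for an interferon-induced membrane protein that has been linked to protection from apoptosis. Its FPKM was 33.3, 34.4 and 34.5 in WT 1 to 3, and 114, 89.1 and 93.7 in K29Q 1 to 3. The WT libraries were nearly equal, with an SD of 1.94% of their mean, while K29Q 1 stood above the other two K29Q libraries, which held the group's SD at 13.4% of its mean. The lowest K29Q library was 2.58 times the highest WT library. Group means were 34.1 ± 0.663 and 98.9 ± 13.3 (SD, n = 3 each). Their ratio was 2.90, with a log2 difference of 1.502 (SE 0.0963) that the limma test called (Benjamini-Hochberg adjusted p = 0.00352). By level IFI6 ranked 1027th of the 13261 genes in WT and 296th in K29Q. On the log2(FPKM + 1) scale 1 tested gene had a larger difference, the entry AC135050.1, which stood at 0.0697, 0.0624 and 32.5 FPKM in WT 1 to 3 and overlapped between the groups (chosen after its values were seen). By the ratio of means 9 tested genes exceeded IFI6, among them the interferon-induced OAS1 at 3.15, a gene of low level. Without K29Q 1, the IFI6 log2 difference was 1.40, still called. Its call was lost when genes of low values were not filtered out (limma, adjusted p = 0.0578).

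IFI27 was the least abundant member and showed the second-largest ratio. It lies on chromosome 14 (ENSG00000165949, 94104836 to 94116698, plus strand) between its relatives IFI27L1 and IFI27L2, and its protein has been described in mitochondria and at the nuclear envelope. The 3 WT libraries had 0.522, 0.506 and 0.584 FPKM, and the K29Q libraries 1.13, 1.40 and 0.990. No K29Q library reached down to the WT range, and K29Q 3, the one of run B, was the lowest of its group. Means were 0.537 ± 0.0413 and 1.17 ± 0.209, a ratio of 2.18, and leaving out single libraries moved the ratio between 1.97 and 2.35. The log2(FPKM + 1) difference of 0.50 understates this ratio because the pseudocount of 1 exceeds most of the values. If all its fragments came from the longest transcript, IFI27 rested on an estimated 46 to 51 fragments per WT library and 81 to 137 per K29Q library. IFI27L1, with 84 to 99 and 77 to 96, rested on similarly few.

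Its neighbours IFI27L1 and IFI27L2 showed small differences in opposite directions. IFI27L2 (ENSG00000119632, 94127779 to 94130253, minus strand) had 11.2, 12.4 and 11.7 FPKM in WT and 13.3, 14.2 and 13.02 in K29Q. Its groups were just apart, with the lowest K29Q library at 1.05 times the highest WT library. The means of 11.8 ± 0.610 and 13.5 ± 0.588 gave a ratio of 1.148 and a log2 difference of 0.19 (SE 0.0660). IFI27L1 (ENSG00000165948, 94081282 to 94103846, plus strand) had 2.80, 3.15 and 3.03 FPKM in WT and 2.59, 2.88 and 2.83 in K29Q, so the groups overlapped at a ratio of 0.924 and a log2 difference of -0.08 (SE 0.0693, 95% confidence interval -0.25 to 0.08). Both have promoter windows without an ISRE core, and a link of this to their differences was not tested. Neither was called by the limma test.

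IFIT1 had the largest difference of the IFIT genes. It encodes the cap-sensing founder of the family (ENSG00000185745, chromosome 10 from 89392546 to 89406486, plus strand). WT 1 to 3 had 5.42, 4.91 and 4.31 FPKM, and K29Q 1 to 3 had 8.41, 9.16 and 9.30. The K29Q libraries all exceeded the highest WT library, at least 1.55 times. Means were 4.88 ± 0.552 and 8.96 ± 0.478 (SD, n = 3 each), which gives a ratio of 1.84 and 0.76 as the log2 difference (SE 0.0863). The limma test did not call it.

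IFIT2 and IFIT3, whose products assemble with IFIT1, were expressed at a lower level than IFIT1 in every library. IFIT2 (ENSG00000119922, 89283694 to 89309276, plus strand) had 1.29, 1.21 and 1.08 FPKM in WT and 1.97, 2.24 and 2.004 in K29Q. IFIT3 (ENSG00000119917, 89327894 to 89340971, plus strand) had 1.39, 1.27 and 1.37 FPKM in WT and 2.15, 1.87 and 2.27 in K29Q. For both, every K29Q library was above every WT library. The ratios of means were 1.74 for IFIT2 (log2 difference 0.49, SE 0.0750) and 1.56 for IFIT3 (0.40, SE 0.0765), and the test called neither.

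IFIT5, the triphosphate-binding member at the end of the cluster, had the closest groups of the 4. The gene (ENSG00000152778, 89414586 to 89421001, plus strand) had 5.41, 4.08 and 4.15 FPKM in WT and 5.98, 6.59 and 7.02 in K29Q. WT 1 stood above the other WT libraries, and the lowest K29Q library, K29Q 1, was 1.11 times as high as WT 1. Means of 4.55 ± 0.747 and 6.53 ± 0.519 gave a ratio of 1.44 and a log2 difference of 0.45 (SE 0.108), which was not called. Without WT 1 the log2 difference was 0.56, also not called.

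Each member's difference had the same sign in both runs. The log2 differences within runs A and B were 1.52 and 1.44 for IFI6, 0.73 and 0.82 for IFIT1, and 0.49 and 0.46 for IFIT2. For IFIT3 they were 0.40 and 0.46, and for IFIT5 0.52 and 0.48. IFI27 had 0.59 in run A and 0.36 in run B, IFI27L2 0.14 and 0.17, and IFI27L1 -0.15 and -0.03. Run A holds 1 WT library and run B 1 K29Q library, so neither has a replicate check on both sides.

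**Figure D2:**
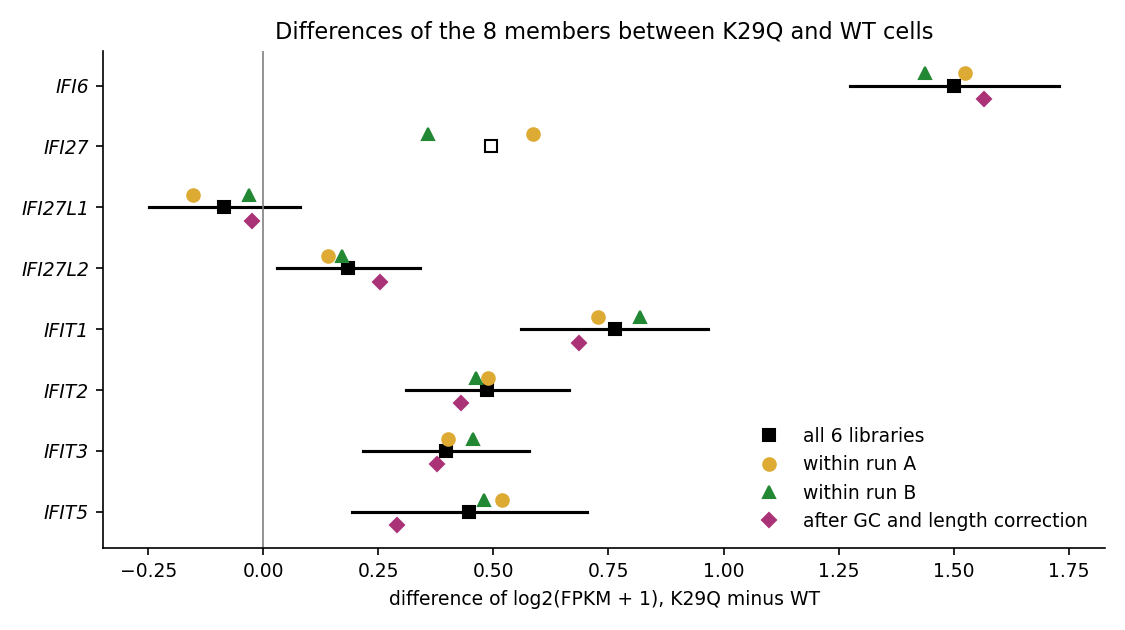
Difference of log2(FPKM + 1) between K29Q and WT (horizontal axis) for each member: squares with 95% confidence intervals from the limma fit, circles and triangles within runs A and B, and diamonds with GC content and length taken out; the open square marks IFI27, which was not in the fit. The markers of each gene except IFI27L1 all lie above 0.

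Base composition moved with the differences over the whole table. The longest transcript had a GC content of 37.4% in IFIT5, 42.2% in IFIT1, 42.8% in IFIT2 and 44.3% in IFIT3, against 56.1% in IFI6. The median log2 difference of the 1632 tested genes within 2.5 percentage points of IFIT5 was 0.15, and it was 0.06 around IFIT1, 0.05 around IFIT2, 0.03 around IFIT3 and -0.04 around IFI6. With a trend on GC content and length fitted and removed per library, the log2 difference was 0.29 for IFIT5, 0.69 for IFIT1, 0.43 for IFIT2, 0.38 for IFIT3 and 1.57 for IFI6. IFIT1 and IFIT2 were called after that correction (limma, adjusted p = 0.00901 and 0.0388), which called 83 genes in all. With the replicate block added to it neither was called (adjusted p = 0.144 and 0.190).

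Levels between members can be set side by side because FPKM is scaled by length. In WT cells the order ran from IFI6 through IFI27L2 to IFIT1, IFIT5, IFI27L1, IFIT3, IFIT2 and IFI27. IFIT1 and IFIT5 overlapped there, as did IFIT3 and IFIT2, and the other neighbours in the order were apart. K29Q cells kept the same order by mean, with IFIT3 and IFIT2 (2.09 and 2.07 FPKM) still overlapping and IFIT1 now wholly above IFIT5. Of the summed FPKM of the 8 members, IFI6 made up 55.6% ± 1.23 (SD, n = 3) in WT cells and 72.5% ± 3.28 (SD, n = 3) in K29Q cells.

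The make-up of the IFIT family also differed. The 4 genes summed to 13.5, 11.5 and 10.9 FPKM in WT 1 to 3 and to 18.5, 19.9 and 20.6 in K29Q 1 to 3. IFIT1 supplied 40.8% ± 1.74 of this sum in WT and 45.6% ± 0.495 in K29Q, and IFIT5 37.9% ± 2.25 and 33.2% ± 0.879, each with no overlap between the groups. The ratio of IFIT1 to IFIT5 within a library was 1.001, 1.20 and 1.04 in WT and 1.41, 1.39 and 1.33 in K29Q. By contrast, the ratio of IFIT1 to IFIT2 overlapped, at 4.09 ± 0.102 and 4.33 ± 0.283, and so did the shares of IFIT2 and IFIT3. The IFI6 and IFI27 family summed to 49.4 ± 1.38 FPKM in WT and 116 ± 12.8 in K29Q, of which IFI6 supplied 69.0% ± 0.766 and 84.9% ± 2.07.

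**Figure D3:**
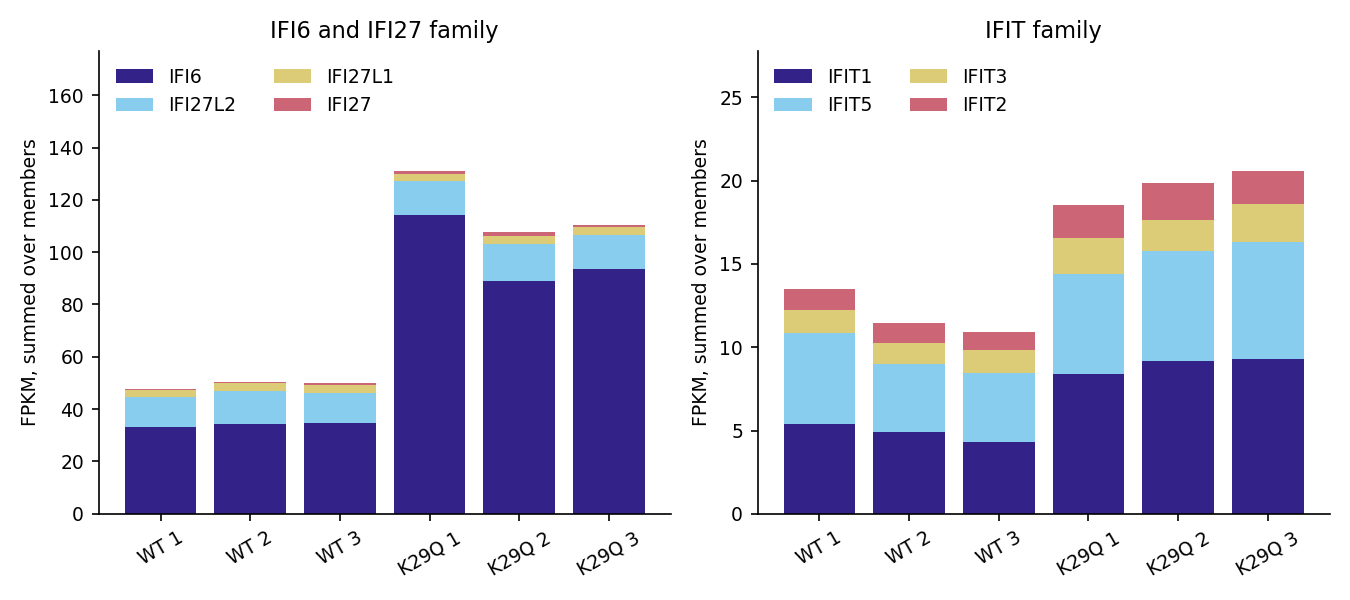
Summed FPKM (vertical axes, from 0) of the members of each family in every library, with 1 colour per gene. IFI6 fills most of the left-hand columns and makes up nearly all of their difference, while in the IFIT family all 4 segments are taller in K29Q.

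Among replicates, members differed in which library stood highest. IFI6 was highest in K29Q 1, where IFIT1 and IFIT5 were lowest of their group. As log2(FPKM + 1) deviations from the group mean, K29Q 1 stood at 0.21 for IFI6, -0.08 for IFIT1 and -0.11 for IFIT5. IFIT1 and IFIT5 were both highest in WT 1 (0.13 and 0.22) and in K29Q 3 (0.05 and 0.09) of their groups. Over these 6 deviations Pearson's r for the 28 pairs of members ran from -0.87 (IFI27L2 with IFIT3) to 0.83 (IFIT1 with IFIT5), and within the IFIT genes it was as low as -0.60 (IFIT2 with IFIT3). These are a description, since each r rests on only 6 deviations, taken from group means of 3 libraries, and the values of a library are not independent of each other.

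Neighbouring genes at the same loci had log2 differences between -0.20 and 0.44. For IFI6, the IFI27 cluster and the IFIT cluster, the nearest measured protein-coding genes were taken, up to 3 on each side within 1 Mb, together with any that overlap. Of the 18, 0 were called (limma, 4 at an unadjusted p under 0.05), 9 lay above 0 and 9 below, 1 was wholly higher in K29Q and 1 wholly lower. Over all 13261 genes 12.5% were at an unadjusted p under 0.05 and 51% lay above 0, with 8.8% wholly higher and 9% wholly lower. AHDC1 and FAM76A, which flank IFI6 at 61.6 and 53.8 kb, had log2 differences of -0.07 and 0.09. DDX24, an RNA helicase gene that lies directly beside IFI27L1, had 9.49 ± 0.904 and 10.4 ± 2.70 FPKM, and DICER1, which cuts microRNA precursors and lies 956 kb from the IFI27 cluster, had 3.31 ± 0.376 and 4.48 ± 0.327 and was the one wholly higher; the orphan receptor gene GPR3, 270.2 kb from IFI6, was wholly lower at 1.27 ± 0.182 and 0.978 ± 0.0396. Beside the IFIT cluster FAS had a log2 difference of 0.01, PANK1 of 0.03 and KIF20B, a mitotic kinesin 281 kb away, of 0.44 with overlapping groups.

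**Figure D4:**
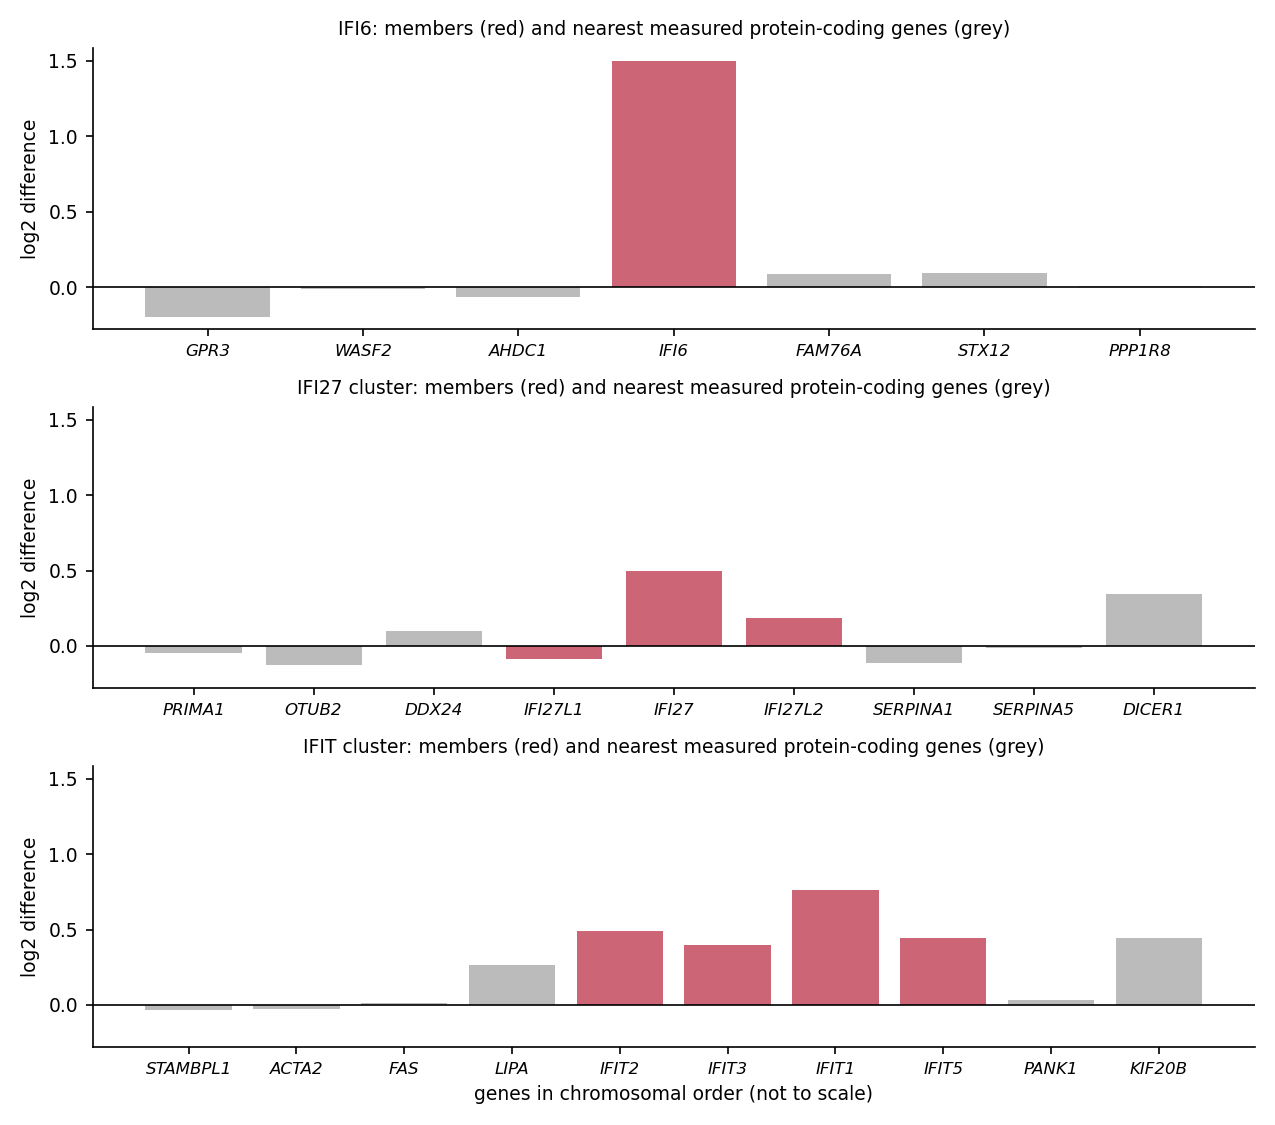
Difference of log2(FPKM + 1), K29Q minus WT, for the members (red) and the nearest measured protein-coding genes (grey) in chromosomal order at each locus. The neighbours of IFI6 lie between -0.20 and 0.09, and in the IFIT panel LIPA and KIF20B are the grey bars that reach above 0.25.

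Overlapping gene models were checked because the strand setting of the counting is not given. IFIT1, IFIT2 and IFIT3 lie inside the longest model of LIPA, the lysosomal acid lipase, on the opposite strand. LIPA had 7.86 ± 1.07 FPKM in WT and 9.63 ± 0.769 in K29Q, and its groups overlapped. Of all 75-base windows of the members' longest transcripts, searched on both strands against every other gene's transcripts in GENCODE 29, 0 were shared for 7 members and 7.77% for IFIT2, all with AL353751.1. That non-coding model runs along IFIT2 on the same strand and is listed as RP11-149I23.3, with 0.0901 ± 0.0171 and 0.197 ± 0.0475 FPKM, so reads of IFIT2 may be divided with it. RP11-288L9.4, antisense to IFI6, had 0.114 ± 0.0160 and 0.180 ± 0.0203. Within the families the coding sequences were 40.7% (IFI27L1 with IFI27L2) to 67.6% (IFIT2 with IFIT3) identical, and IFIT1 and the non-member IFIT1B 78.4%. IFIT1B and the pseudogene IFIT1P1 never passed 0.105 FPKM.

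Upstream of these genes, interferons themselves were close to undetected. Of 21 ligand genes 16 stayed below 0.1 FPKM in every library, and 2 of these were listed at 0 throughout. IFNE, a type I interferon of epithelia, was the one that passed the filter, at 1.23, 0.974 and 0.777 FPKM in WT and 1.75, 2.14 and 1.33 in K29Q, and it was not called. WT 1 was its only WT library at 1 FPKM or more, so IFNE passed only through its K29Q libraries. The 15 receptor and signalling genes were all measured, 13 above 0 and 2 below with a median log2 difference of 0.12, and 0 were called (limma, 3 at an unadjusted p under 0.05). Over all 13261 genes 51% lay above 0, 12.5% were at an unadjusted p under 0.05 and the median log2 difference was 0.00305, the background for this and the following lists. IRF9 had 1.98 ± 0.323 and 3.16 ± 0.518 FPKM, and IRF7, which drives interferon genes, 6.23 ± 1.06 and 10.1 ± 1.18, and both were wholly higher in K29Q.

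Of 11 sensing genes 7 were measured, 6 above 0 and 1 below, with a median log2 difference of 0.28 and 0 called (limma, 4 at an unadjusted p under 0.05). DDX58, the triphosphate RNA sensor RIG-I, had 3.99 ± 0.920 and 7.40 ± 0.373 FPKM, and the kinase EIF2AK2, known as PKR, had 9.13 ± 0.963 and 12.8 ± 0.777. The 5 feedback genes had a median of 0.16, 4 above 0 and 1 below, and 0 were called (limma, 1 at an unadjusted p under 0.05): the ubiquitin-like ISG15 had 82.7 ± 5.52 and 124 ± 6.36 FPKM, while USP18, which removes it, overlapped at 4.22 ± 0.397 and 4.82 ± 0.202, as did PIAS1 at 2.76 ± 0.434 and 3.37 ± 0.238. Of 40 other interferon-induced genes 26 were measured, 23 above 0 and 3 below, with 17 at an unadjusted p under 0.05 (limma) and a median log2 difference of 0.29. The median was 0.10 over all 40 with no filter and 0.10 over the 10 genes with a mean FPKM of at least 5, of which 7 lay above 0. One of these was called, OAS3, which makes the activator of RNase L and rose from 10.3 ± 0.653 to 16.9 ± 0.463 FPKM (limma, adjusted p = 0.0357). For 3 of the 26 a WT library lay below 1 FPKM, and one of them, OAS1, at 0.397 ± 0.0598 and 1.25 ± 0.0587, passed the filter only through its K29Q libraries. DTX3L, a ubiquitin ligase gene, had 3.60 ± 0.260 and 6.00 ± 0.467. The other targets were partly silent: 8 of the 40 never reached 0.1 FPKM, among them RSAD2, MX2 and XAF1, and MX1 had 0.0997 ± 0.0374 and 0.138 ± 0.0359 (chosen after their values were seen). Of 14 interferon gamma targets 4 were measured, 2 above 0 and 2 below, with a median of 0.02 and 0 called (limma, 0 at an unadjusted p under 0.05): HLA-DRA had 4.33 ± 0.455 and 3.44 ± 0.655 FPKM, TAP2 11.2 ± 0.786 and 12.4 ± 0.226, and PSMB9 2.37 ± 0.236 and 2.46 ± 0.125.

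**Figure D5:**
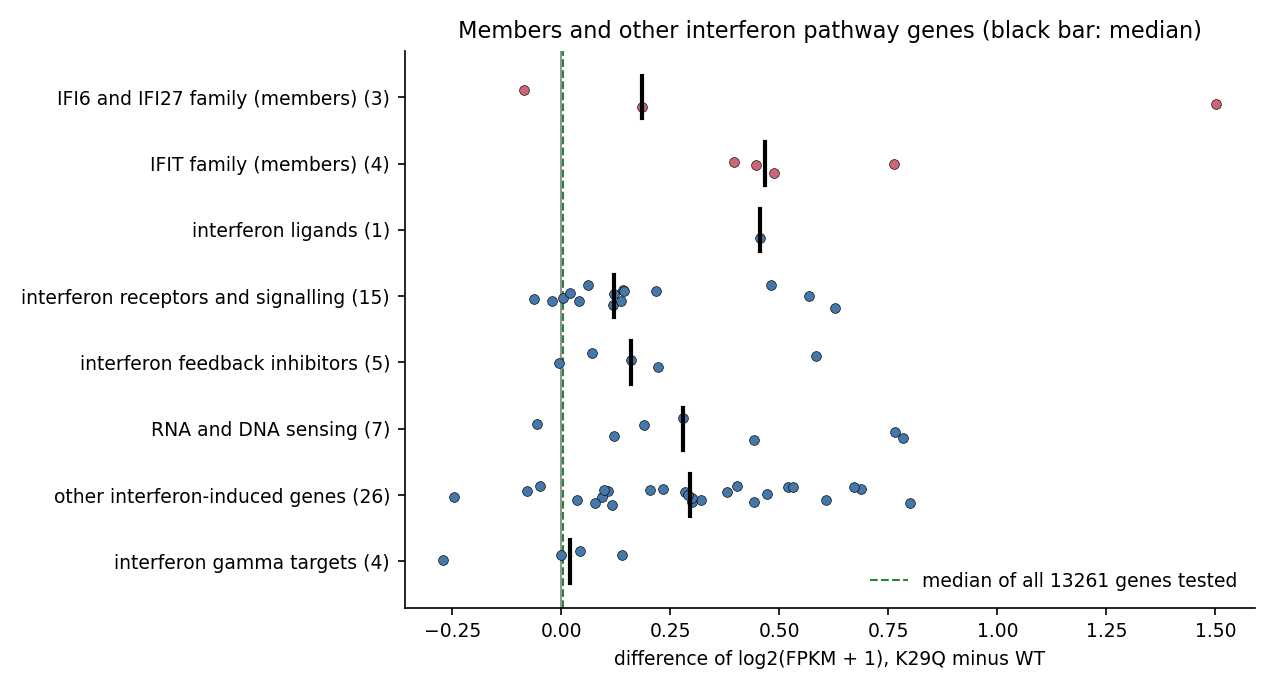
Difference of log2(FPKM + 1), K29Q minus WT (horizontal axis), of each measured gene in the 2 member families (red) and 6 lists of pathway genes (blue), with the number measured in brackets, the list median as a black bar and the median of all 13261 genes as a dashed line. On this scale IFI6 lies farther to the right than any listed gene, although OAS1 had a higher ratio of means (3.15 against 2.90). The interferon gamma targets centre near 0.

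The genes whose pattern over the 6 libraries was most like that of IFI6 were found by the root mean square difference of log2 values centred on each gene's mean. In IFI6 these values are mostly the step between WT and K29Q. The measure therefore picks genes with large rises in the same contrast, and nothing is read from which genes it names. The closest 5 outside the families were a second entry for ATRIP (0.207), UBFD1 (0.229), SLC5A3 (0.371), IFIH1 (0.384) and SAMD9 (0.385). IFIH1, the RNA sensor MDA5, and SAMD9 are interferon-induced, UBFD1 has a ubiquitin-like domain and SLC5A3 transports inositol. The ATRIP entry, which was not found in GENCODE 29, passed the filter through its K29Q libraries. That entry rose from 0.223 ± 0.135 to 1.71 ± 0.111 FPKM (limma, adjusted p = 0.0184), and it was not compared with the other ATRIP entry. UBFD1 rose from 5.19 ± 0.389 to 12.7 ± 0.498 FPKM (limma, adjusted p = 0.00352), SLC5A3 had 4.82 ± 1.31 and 9.88 ± 0.590, IFIH1 1.51 ± 0.245 and 3.31 ± 0.140, and SAMD9 1.22 ± 0.302 and 2.85 ± 0.387, the last 3 not called. Within the families IFIT1 was the nearest to IFI6, at 0.408, although their deviations from the group means correlated at r = -0.54.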

How the data were processed

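Total RNA of 3 WT and 3 K29Q libraries of HCT116 cells was measured. The deposited table holds FPKM values, per the file headers. The submitters' processing notes name HISAT2 2.1.0, StringTie and the GRCh38 build; versions, annotation, settings and strand option beyond these are not stated in what was used. FPKM values are not counts, so no count test was run. Samples were grouped by their titles.

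The filter kept 13261 genes with 1 FPKM or more in 3 or more libraries, and their log2(FPKM + 1) values entered a limma 3.58.1 fit (R 4.3.3) with an intensity trend and the group as the only term. P-values were adjusted by Benjamini-Hochberg over the 13261 genes at a threshold of 0.05, and the fit was tested on simulated data. Log2 differences are on this scale, which understates low genes, and ratios are of mean FPKM. Positions and lengths come from GENCODE 29 by gene ID, where 57055 of 60675 were found, and 13108 tested genes had a GC content, and promoter windows from RefSeq by symbol. The windows matched 8838 of the tested genes. Families were compared by coding sequence, not protein, with global alignment in Biopython 1.88. Depth was estimated from FPKM steps of single-exon genes longer than 600 nt.

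The members, gene lists and tests were chosen with earlier results of these data known. Named genes were the members, the 5 genes most like IFI6, pathway genes called or among the 3 smallest p-values of their list, the neighbours and PHF5A; others are marked. A pathway gene that this rule names is not reported here. The 14 alternatives were quantile normalization, other filters, a pseudocount of 0.1, a replicate block, a run term, GC and length correction with and without that block, and each library left out.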

Additional observations from a re-analysis of the deposited data

How the results depend on the processing

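The IFI6 log2 difference lay between 1.40 and 1.57 over the 14 alternatives. Its call was lost with no filter on low values (1.502, limma, adjusted p = 0.0578, 41186 genes tested) and with GC and length correction plus the replicate block (1.57, 0.0738), and the cause of the latter was not tested. All 7 tested members kept their direction in every alternative in which they were tested. IFIT1 gained a call with quantile normalization (adjusted p = 0.0417) and without WT 1 (0.0472), besides GC and length correction.

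The count of genes called, 7, was 13 with quantile normalization, 2 with no filter, 4 with the run term, 83 with GC and length correction, and 5 to 20 with a library left out (20 without WT 1, 12 without K29Q 1). With the replicate block it was 3, and 1 with the block and GC and length correction. The labels do not say if same-numbered samples are pairs. Same-numbered deviations from the group means correlated at -0.14, 0.179 and -0.165, and differently numbered ones at -0.115 to 0.247. The deviations within a group are tied to each other through its mean, so these values cannot settle the pairing. IFI6 kept its call under the block (1.502, limma, adjusted p = 0.0415).

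The median log2 difference of the other interferon-induced genes, 0.29, was 0.26 with quantile normalization, 0.10 with no filter, 0.10 at a mean FPKM of at least 5 (10 genes), 0.38 with a pseudocount of 0.1, 0.28 with GC and length correction with or without the block, and 0.24 to 0.31 with a library left out.

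Depth limits IFI27, IFI27L1, IFIT2 and IFIT3 most, with at most 333 estimated fragments per library.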

Other observations

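The ISRE core was also set against the differences of genes outside the families. Of the tested genes 8526 non-members had a promoter window without the core, 276 had a window with 1 copy and 30 had a window with 2 or more. The median log2 difference was 0.00305, 0.04 and 0.11, and 51.0%, 60.5% and 66.7% lay above 0. The groups did not overlap and were higher in K29Q for 9.07%, 17.4% and 33.3% of these genes, where all 13261 genes gave 8.8%, and they were lower for 9.52%, 7.61% and 6.67%. The non-members include the other interferon-induced genes listed above, so these counts and the next are not separate. They also include receptor, signalling, feedback and sensing genes of the lists above, which were chosen with earlier results of these data known. Of the 306 with at least 1 core, 58 were wholly higher in K29Q. Among the other interferon-induced genes with a window, 14 held the core and all 14 lay above 0, with a median of 0.41. Of these 14, 10 were wholly higher in K29Q. Another 8 held none, of which 7 lay above 0, with a median of 0.29, and 5 were wholly higher. These are counts over genes of the same 6 libraries, with no test.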
